A study of Mus musculus with 4 samples.

Results

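The genes described here belong to the unfolded protein response of the endoplasmic reticulum and to the heat shock response of the cytosol. They were chosen by name, with earlier results of these data known, as the array probes whose design name is one of 38 genes. A probe of that name existed for 37 of the 38, out of 36096 genes or names on the array, and 36 stood well above background on all 4 arrays. The exceptions were Derl3, a paralog of Derl1 in the removal of misfolded proteins, which was not well above background on any of the 4 arrays, and Hspa1b, which had no probe under its own name. The cells were RAW264.7, an established macrophage-like line from mouse, and total RNA labelled with Cy3 was hybridised to 1 Agilent array per group. The groups were Linc-AAM knockdown cells with AEPS, scramble cells with AEPS, Linc-AAM knockdown cells in DMEM and scramble cells in DMEM. All 4 cultures were bulk cultures selected with 6 µg/mL blasticidin for a stably integrated vector that expresses an artificial microRNA. That microRNA targets the lincRNA Linc-AAM or carries a scramble sequence, and the level of Linc-AAM itself was not checked here. AEPS is a polysaccharide from the roots of Actinidia eriantha, and it was given at 50 µg/mL for 4 h, against DMEM medium alone for 4 h.

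Cells fold secreted and membrane proteins in the endoplasmic reticulum (ER). When unfolded proteins build up there, the sensors IRE1 (gene Ern1), PERK (Eif2ak3) and ATF6 respond through separate branches. IRE1 splices the Xbp1 transcript, and XBP1 and ATF6 then raise chaperones and the machinery of ER-associated degradation. PERK phosphorylates eIF2, which lowers general translation and favours ATF4, the activator of amino acid and feedback genes. Other kinases that sense viral RNA, haem or amino acid shortage reach eIF2 too, so the ATF4 output is known as the integrated stress response. The heat shock response is a separate system, in which HSF1 raises cytosolic chaperones. In macrophages, Toll-like receptor signalling is known to engage IRE1 and XBP1 and to restrain the ATF4 target CHOP (Ddit3).

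Between 53.4% and 58.0% of the spots on an array were well above background, and 0 spots were saturated. Of the 10 macrophage markers examined, 9 were well above background on all 4 arrays, while 0 of 3 epithelial markers were. T cell, B cell and fibroblast markers gave 1 of 3 each. The summed relative signal of the fibroblast markers was 0.206 and 0.268 under AEPS, against 0.104 and 0.111 in DMEM. Among them Col1a1 had 0.0207 and 0.0281 in DMEM, where the lowest signals well above background were 0.0381 and 0.0241. The sum of the macrophage markers was 763 and 814 under AEPS, against 715 and 731 in DMEM. Of these 10, 6 had a positive fitted AEPS effect and 4 a negative one. Cd14 had 290.7 and 310.2 under AEPS, against 109.0 and 103.7 in DMEM. Csf1r had 359.2 and 328.9, against 482.9 and 447.7. The part of the markers in the results below was not tested. The treatment was visible in Il1b, whose fitted log2 difference between AEPS and DMEM was 11.78 ± 0.76 (SE; limma adjusted p = 0.00946), and in Tnf, with 4.92 ± 0.44 (limma adjusted p = 0.0143). The 4 arrays carry an unresolved conflict of labels. Each column of the authors' deposited value table ranked the probes like the scanner file of the other line under the same treatment (Spearman rho of 1, against 0.969 with its own file), so every statement on the lines follows the scanner files, and the table's labels would name the lines the other way round. The AEPS effect over both lines is not touched by that conflict. In bulk cultures, fewer cells that make an RNA and less RNA per cell cannot be told apart.

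Short regulatory elements known to drive these responses were looked for in the RefSeq promoter windows of build GRCm38.p6, which reach from 250 bases before a gene's start to 50 bases after it. Windows were found for 31 of the 38 genes. The ER stress response element, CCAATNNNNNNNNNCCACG, binds ATF6 and XBP1 together with NF-Y. Its second form is ATTGG, 1 free base and CCACG. The CEBP-ATF element, TGATGNAA, is the composite site through which ATF4 acts. All motifs were searched on both strands. The stretches below are shown because they belong to the gene with the largest AEPS effect among the members, to the best known ER chaperone gene, and to the other genes that hold a CEBP-ATF element. Each runs 5′ to 3′ on the strand of its gene, and the capitals mark the elements found.
Herpud1, chr8:94386179-94386428, plus strand: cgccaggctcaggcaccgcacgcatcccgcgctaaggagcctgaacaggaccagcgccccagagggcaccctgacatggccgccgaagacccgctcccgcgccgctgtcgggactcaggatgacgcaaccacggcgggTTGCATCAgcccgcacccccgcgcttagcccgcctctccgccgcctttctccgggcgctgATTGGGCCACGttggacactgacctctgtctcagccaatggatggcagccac
Hspa5, chr2:34771840-34772089, plus strand: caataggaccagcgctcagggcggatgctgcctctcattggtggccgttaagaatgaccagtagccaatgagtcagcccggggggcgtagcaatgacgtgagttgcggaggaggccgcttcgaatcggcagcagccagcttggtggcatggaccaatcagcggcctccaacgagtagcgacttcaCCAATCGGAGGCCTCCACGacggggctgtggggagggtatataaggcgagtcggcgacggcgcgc
Chac1, chr2:119350992-119351241, plus strand: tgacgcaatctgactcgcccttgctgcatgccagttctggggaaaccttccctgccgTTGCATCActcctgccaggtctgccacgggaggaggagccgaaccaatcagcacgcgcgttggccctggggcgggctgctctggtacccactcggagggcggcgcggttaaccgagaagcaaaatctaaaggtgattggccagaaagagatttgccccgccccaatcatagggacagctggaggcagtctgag
Asns, chr6:7693210-7693459, minus strand: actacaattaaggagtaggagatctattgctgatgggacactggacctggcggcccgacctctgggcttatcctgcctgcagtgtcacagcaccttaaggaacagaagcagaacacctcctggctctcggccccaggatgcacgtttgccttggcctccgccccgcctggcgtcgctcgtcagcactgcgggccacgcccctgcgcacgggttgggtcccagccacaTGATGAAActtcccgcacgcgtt
Trib3, chr2:152344028-152344057, minus strand, just after the start: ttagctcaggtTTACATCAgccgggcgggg

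The ER stress response element was found in 9 of the 31 genes, beside 0.137% of all 27025 genes with a window. These 9 were Hspa5, Hsp90b1, Calr, Canx, Dnajc3, Creld2, Pdia6, Syvn1 and Derl3. The second form of the element was found in Herpud1 and Dnajb11, and in 0.0444% of all genes with a window. The CEBP-ATF element was found in Herpud1, Trib3, Asns and Chac1, and in 4.51% of all genes with a window. Only the Herpud1 window held both kinds among these genes. A heat shock element of 3 alternating units, GAANNTTCNNGAA or TTCNNGAANNTTC, was found among the members in Hsph1 alone, and in 0.662% of all genes with a window. The core of the UPR element, TGACGTGG, was found in 0 of the 31 genes and in 0.714% of all genes with a window. The members were chosen by name as genes of these responses, so their share is not a test of the elements. A match describes the letters of a window and is not a measured binding site.

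Signals below are given relative to the array, as multiples of the 75th percentile of the processed intensity on that array, and differences are on the log2 scale. The main comparison asks what AEPS did to these genes over both lines. limma was fitted to the 22339 genes that at least 2 arrays read well above background, with line and treatment as terms, and a gene rose or fell when its Benjamini-Hochberg adjusted p was below 0.05. In this fit the AEPS effect has 2 arrays per treatment, 1 per line, and 1 residual degree of freedom. That degree of freedom measures how far the AEPS response differed from line to line, together with any spread between cultures and arrays. limma joined it with a variance estimated over all genes, with a prior SD of 0.13 and 2.82 prior degrees of freedom. Each SE therefore rests largely on that shared variance and is not the spread of the gene alone. No group had a second culture. Some genes are described below by whether the AEPS arrays lay apart from the DMEM arrays. The share of all genes with such a separation was not counted, so it describes the values and is not a test.

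AEPS raised Herpud1, Ppp1r15a, Trib3 and Chac1 and lowered Atf6 and Dnajb1, and the other 30 measured genes did not pass the test. Over all genes fitted, 7.4% rose and 7.29% fell. The members gave 11.1% and 5.56%, so their share of calls lies near that background, and the description below rests on the genes and not on the count. The median effect was 0.13 over the 36 members and 0.07 over all genes, and under quantile normalization it was -0.02 and -0.03. Leaving the dim genes in the fit ended all 6 calls, with 0 members higher and 0 lower. A model in which the variance follows intensity gave 11 and 5.

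**Figure D1:**
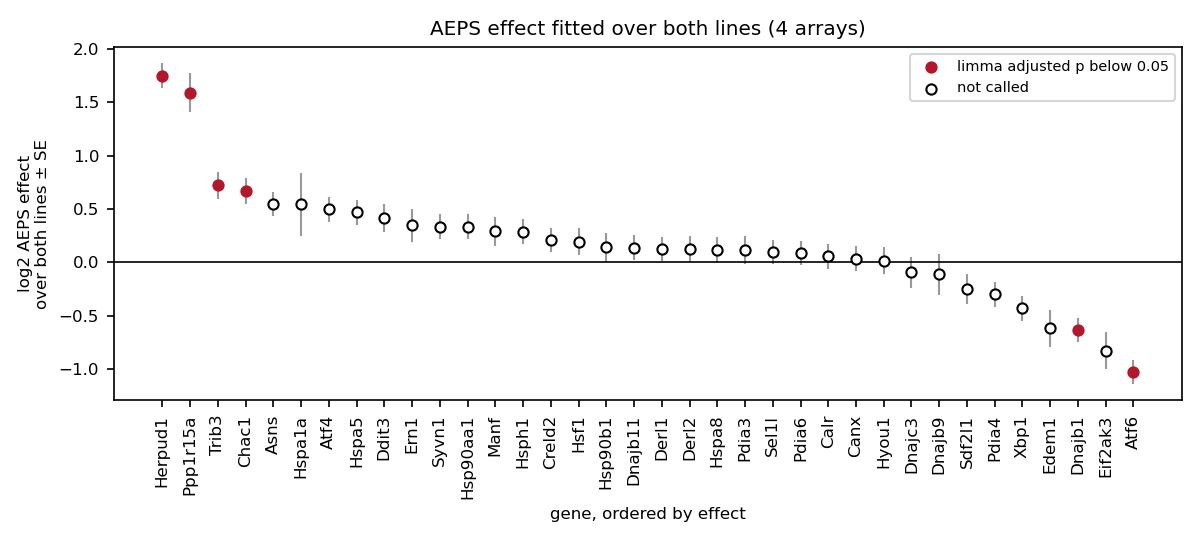
AEPS effect fitted over both lines for the 36 measured genes (vertical axis, log2 difference between AEPS and DMEM, bars are the SE from limma over 4 arrays), ordered by effect. Filled points mark the 6 genes that passed the test, with Herpud1 at 1.75 and Ppp1r15a at 1.59 at the top and Atf6 at -1.03 at the bottom.

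The ER chaperones, which hold and fold new proteins in the ER, did not pass the test in any of 11 cases. Their median AEPS effect was 0.06, beside 0.07 for all genes, and the values ran from -0.25 to 0.47. Hspa5, which encodes BiP, the main ER chaperone and the partner that keeps the 3 sensors silent, had the highest of them. Its relative signal was 228 and 240.1 under AEPS on the arrays labelled knockdown and scramble, against 157 and 182 in DMEM. Both AEPS arrays lay above both DMEM arrays, and the fitted difference was 0.47 ± 0.12 (SE; limma adjusted p = 0.0811). Under quantile normalization the difference was 0.18 (limma adjusted p = 0.361), while the normexp background gave 0.47 (limma adjusted p = 0.0215). Hsp90b1, the HSP90 of the ER, had 0.14 ± 0.13, and the lectin chaperones Calr and Canx had 0.06 and 0.04. The co-chaperones of BiP also stayed close to 0, with Dnajb11 at 0.14, Dnajc3 at -0.09, Sdf2l1 at -0.25 and Dnajb9 at -0.11. Hyou1, a nucleotide exchange factor for BiP, had 0.02. The secreted ER stress proteins Creld2 and Manf had 0.21 and 0.29, and Manf had 0.12 under quantile normalization. The Creld2 probe was printed 10 times per array, and its spots had an SD of 0.016 to 0.033 on the log2 scale within an array. The directions of Hsp90b1, Calr, Canx, Dnajb11 and Creld2 turned under quantile normalization.

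Pdia3, Pdia4 and Pdia6 encode protein disulphide isomerases, which form and rearrange disulphide bonds in the ER, and 0 of the 3 passed the test. Their fitted effects were 0.11 ± 0.13, -0.30 ± 0.12 and 0.09 ± 0.11 (SE), with the lowest adjusted p at Pdia4 (limma adjusted p = 0.175). Pdia3 and Pdia6 turned negative under quantile normalization.

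In ER-associated degradation, misfolded proteins are drawn out of the ER and handed to the proteasome, and here 1 of 6 measured genes rose and 0 fell. That gene was Herpud1, which encodes an ER membrane protein that helps assemble the ubiquitin ligase complex around SYVN1. Its relative signal was 38.9 and 34.0 under AEPS on the arrays labelled knockdown and scramble, against 11.1 and 10.5 in DMEM. The groups did not overlap, and each line showed the change at more than 3-fold, 3.51-fold on the arrays labelled knockdown and 3.23-fold on those labelled scramble. The fitted effect was 1.75 ± 0.12 (SE; limma adjusted p = 0.0097). The single Herpud1 probe reads chromosome 8 from 96919117 to 96919176 in the mm9 coordinates of the design. The ubiquitin ligase gene Syvn1 and its partner Sel1l had 0.34 ± 0.12 and 0.10 ± 0.11, and Syvn1 had 0.17 under quantile normalization. Derl1 and Derl2, which encode membrane proteins of the retrotranslocation channel, had 0.13 and 0.12. Edem1, whose product marks misfolded glycoproteins for disposal, had a relative signal of 9.14 and 9.51 under AEPS against 11.8 and 17.5 in DMEM, and did not pass the test (-0.62 ± 0.17; limma adjusted p = 0.0972).

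Among the sensors and transcription factors, 1 of 5 genes fell and 0 rose. Atf6, the gene of the ER membrane sensor that is cut to release a transcription factor, had a relative signal of 0.895 and 0.729 under AEPS, against 1.80 and 1.51 in DMEM, on the arrays labelled knockdown and scramble. Each AEPS array lay near the 2-fold line, at 0.497 and 0.485 times the DMEM array of its own line. The fitted effect was -1.03 ± 0.11 (SE; limma adjusted p = 0.0201). Its probe reads chromosome 1 from 172635311 to 172635370 in mm9. Eif2ak3, the gene of the sensor kinase PERK, had 1.22 and 1.05 under AEPS, against 1.81 and 2.23 in DMEM. Those groups did not overlap either, and with -0.83 ± 0.17 the gene stood just outside the threshold (SE; limma adjusted p = 0.0586). Eif2ak3 passed the test in 3 of 7 other ways of processing, with limma adjusted p from 0.00402 to 0.206. Ern1, the gene of the sensor IRE1, had 1.1 and 0.720 under AEPS against 0.746 and 0.657 in DMEM. Its AEPS value on the array labelled scramble lay between the values in DMEM, and the fitted effect was 0.35 ± 0.16 (SE; limma adjusted p = 0.217).

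Xbp1, whose transcript IRE1 splices, had a relative signal of 53.3 and 55.8 under AEPS, against 72.0 and 75.2 in DMEM. The log2 difference was -0.43 on the arrays of both lines, and the fitted effect did not pass the test (-0.43 ± 0.11; limma adjusted p = 0.0861). It did pass under quantile normalization, with -0.69 (limma adjusted p = 0.0357). The array has 1 Xbp1 probe, and splicing was not measured. Atf4, the transcription factor gene of the PERK branch, had 257 and 254 under AEPS, against 193 and 170.0 in DMEM. The effect of 0.50 ± 0.12 missed the threshold (SE; limma adjusted p = 0.0753), and a second, dimmer Atf4 probe differed from it by 0.06. Under quantile normalization the effect was 0.22 (limma adjusted p = 0.261). Atf4 passed the test in 3 of 7 other ways of processing, with limma adjusted p from 0.000479 to 0.301. Since ATF4 is controlled largely through translation, its RNA level reads only part of its activity.

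**Figure D2:**
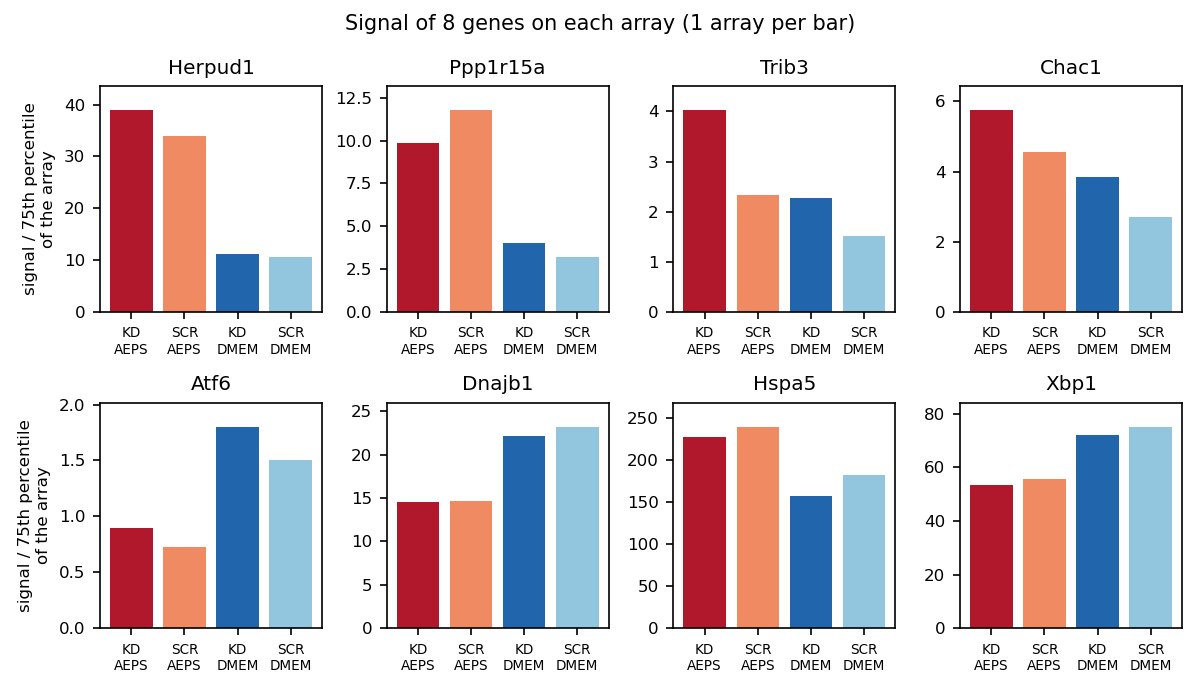
Signal relative to the 75th percentile of each array (vertical axes, starting at 0) for 8 genes, with 1 bar per array for the arrays labelled knockdown (KD) and scramble (SCR) under AEPS and in DMEM. Herpud1 stands at 38.9 and 34.0 under AEPS against 11.1 and 10.5 in DMEM, and Atf6 and Dnajb1 are lower on both AEPS arrays.

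The targets of the integrated stress response were the group with the most calls, 3 of 5 higher and 0 lower. Over all genes fitted, 7.4% rose and 7.29% fell. The group is small, and its median effect was 0.67 beside 0.07 for all genes. On the arrays labelled knockdown all 5 were higher under AEPS, and so were all 5 on the arrays labelled scramble. Over all genes, 12531 of 22283 were above 0 on the knockdown arrays and 12959 of 23104 on the scramble arrays. Ppp1r15a, also known as GADD34, encodes the phosphatase subunit that reverses eIF2 phosphorylation. Its relative signal was 9.85 and 11.8 under AEPS, against 3.99 and 3.19 in DMEM, on the arrays labelled knockdown and scramble. The groups lay far apart, with a fitted effect of 1.59 ± 0.19 (SE; limma adjusted p = 0.0217). Trib3, a pseudokinase gene induced by ATF4 and CHOP, had 4.02 and 2.33 under AEPS, against 2.27 and 1.52 in DMEM. The scramble array under AEPS lay barely above the knockdown array in DMEM. The AEPS effect was 0.72 ± 0.13 (SE; limma adjusted p = 0.0418). Chac1, whose product breaks down glutathione, had 5.75 and 4.56 under AEPS, against 3.83 and 2.70 in DMEM, and an effect of 0.67 ± 0.12 (SE; limma adjusted p = 0.0454). Its call was lost on the authors' deposited value table, with a limma adjusted p of 0.0512.

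Asns and Ddit3 went the same way in each line without passing the test. Asns, which makes asparagine, had 124 and 117 under AEPS, against 86.2 and 78.8 in DMEM (0.55 ± 0.11; limma adjusted p = 0.0571). Its effect was 0.27 under quantile normalization (limma adjusted p = 0.192). Asns passed the test in 3 of 7 other ways of processing, with limma adjusted p from 0.000471 to 0.258. Ddit3, which encodes the death-promoting factor CHOP, had 1.16 and 1.0 under AEPS, against 0.948 and 0.684 in DMEM, so its groups were separated by a small gap (0.42 ± 0.13; limma adjusted p = 0.118). The 4 genes with a CEBP-ATF element in their windows, shown above, had AEPS effects of 0.55 to 1.75 with a median of 0.70. The 10 measured genes with an ER stress response element of either form had effects of -0.09 to 1.75 with a median of 0.14. Herpud1 belongs to both sets and is the top value of each, and the other 9 genes with an ER stress response element reached 0.47 at most. The 15 measured genes with none of the motifs searched had effects of -0.83 to 1.59 with a median of 0.10. The sets overlap in range, and the element in the window was not tested as a cause. Ppp1r15a, with the second largest effect, held none of the motifs searched in its window.

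Of the heat shock genes, 1 of 6 measured fell and 0 rose. Dnajb1, the HSP40 co-chaperone of HSP70 in the cytosol, had a relative signal of 14.6 and 14.6 under AEPS, against 22.1 and 23.2 in DMEM. Both AEPS arrays lay below both DMEM arrays, with an effect of -0.63 ± 0.11 (SE; limma adjusted p = 0.045). Hsf1, the gene of the heat shock transcription factor, had 6.67 and 6.58 under AEPS, against 5.41 and 6.22 in DMEM (0.19 ± 0.13; limma adjusted p = 0.35). Hspa8, the constitutive HSP70, had 486 and 484 under AEPS, against 475 and 419 in DMEM (0.12 ± 0.12; limma adjusted p = 0.528). Its 3 probes differed by up to 0.30 in their mean AEPS effect. A dimmer Hspa8 probe had AEPS differences of -0.31 and 0.55 on the arrays labelled knockdown and scramble. The same probe had a line difference of 0.90 in DMEM, against 0.18 on the probe used. Hsp90aa1, the inducible HSP90, had 0.33 ± 0.12, and Hsph1, an HSP70 exchange factor, had 0.29 ± 0.12. Under quantile normalization these were 0.03 and 0.10.

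Hspa1a encodes the HSP70 that heat shock induces most strongly, and its probe lists transcripts of both Hspa1a and Hspa1b in the design, so these near-identical genes were read together. Its relative signal was 0.0688 and 0.0567 under AEPS, against 0.0687 and 0.0267 in DMEM, on the arrays labelled knockdown and scramble. The array labelled scramble in DMEM thus stood apart from the other 3, close to the 0.0241 that was the lowest signal well above background there. The fitted effect was 0.54 ± 0.30 (SE; limma adjusted p = 0.282). On the arrays labelled scramble the difference was 1.08, and with the normexp background, a model that damps differences near background, it was 0.42. Under quantile normalization it was 0.95, also short of 2-fold.

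Each line was also taken by itself, by size, since a group holds 1 array. On the arrays labelled knockdown, 2 members were at least 2-fold higher under AEPS (Herpud1 and Ppp1r15a) and 1 at least 2-fold lower (Atf6), where 4.65% and 3.5% of 22283 genes were called. On the arrays labelled scramble, 3 were higher (Herpud1, Ppp1r15a and Hspa1a) and 2 lower (Atf6 and Eif2ak3), where 6.81% and 5.31% of 23104 genes were called. The Hspa1a call was lost with normexp and under quantile normalization, which left 2 higher in each. The value table also gave 2 higher without Hspa1a, but its scramble columns rank like the arrays labelled knockdown. There the other line was thus read. These comparisons have no replicate check. Of the 36 measured genes, 24 had a positive and 7 a negative difference on both lines, and 5 had opposite signs. The share of all genes with the same sign on both lines was not counted. Taken line by line, 28 were above 0 on the arrays labelled knockdown and 25 on those labelled scramble. Over all genes, 12531 of 22283 and 12959 of 23104 were above 0. Several small positive effects over both lines turned negative under quantile normalization, so the signs depend in part on the scaling.

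**Figure D3:**
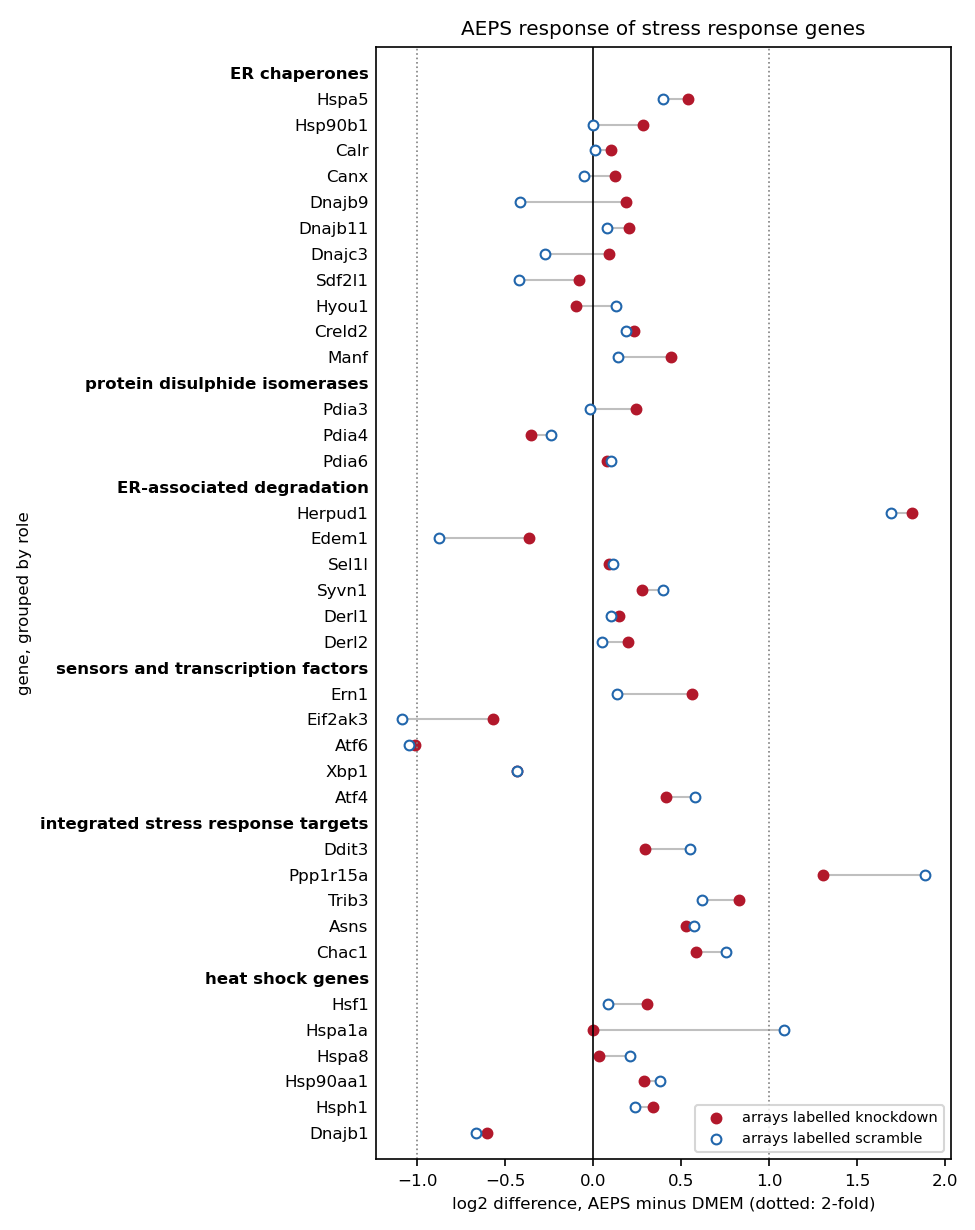
Log2 difference between AEPS and DMEM for each measured gene, grouped by role, on the arrays labelled knockdown (filled) and scramble (open), with dotted lines at 2-fold. Herpud1 and Ppp1r15a pass 2-fold in both lines and Atf6 lies at the lower line in both, while Hspa1a differs between the lines by -1.08.

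The lines were compared within each medium by size and over both media with limma. Over both media 0 of the 36 members were called higher or lower by limma, where 0.398% of all genes were called higher and 0.34% lower. An unadjusted limma p under 0.05 was reached by 2 members, beside 3251 of all 22339 genes. The fits with normexp and with an intensity trend called Trib3 higher, and the trend fit also called Hsp90b1 lower. Those 2 with the low unadjusted p were Trib3, with 0.69 ± 0.13 (SE; limma adjusted p = 0.155), and Chac1, with 0.42 ± 0.12 (SE; limma adjusted p = 0.277), both with higher signal on the arrays labelled knockdown. Under AEPS, 0 members differed at least 2-fold between the lines, beside 1.86% of all genes upward and 2.7% downward. In DMEM, 1 member did, Hspa1a, 2.57-fold higher on the array labelled knockdown, beside 2.48% of all genes upward and 1.59% downward. With the normexp background that call was lost.

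Below 2-fold, the differences between the lines were described by role, with no test. Of the 11 ER chaperones, 10 had a negative difference under AEPS and 10 in DMEM (knockdown minus scramble). Over all genes, 11313 of 22653 were below 0 under AEPS and 11646 of 21927 in DMEM. The median difference of the ER chaperones was -0.10 under AEPS and -0.24 in DMEM, beside 0.0003 and -0.02 for all genes. The 3 protein disulphide isomerases had negative differences in both media. The integrated stress response targets had positive differences in 5 of 5 cases in DMEM and in 4 of 5 under AEPS, with medians of 0.21 under AEPS and 0.47 in DMEM. Over all genes, 10281 of 21927 were above 0 in DMEM and 11340 of 22653 under AEPS. Under quantile normalization 8 of the 11 ER chaperones were below 0 under AEPS and 10 in DMEM, with medians of -0.03 and -0.16, and 1 of the 3 isomerases turned positive in each medium. None of these genes reached 2-fold, and each direction rests on the line labels of the scanner files. Each medium held 1 array per line, so the genes of a role are not replicates of the line difference.

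**Figure D4:**
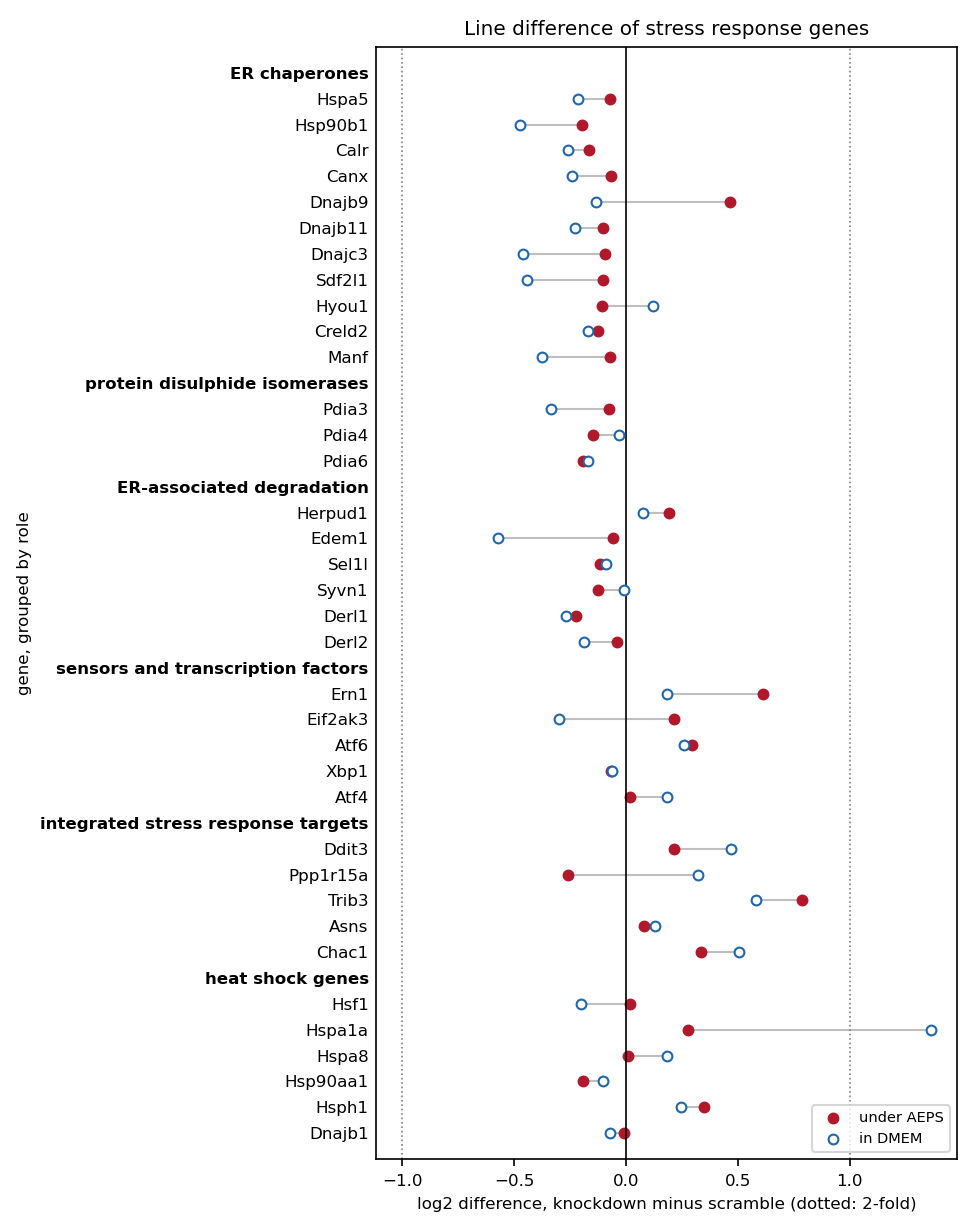
Log2 difference between the array labelled knockdown and the array labelled scramble for each measured gene, under AEPS (filled) and in DMEM (open), with dotted lines at 2-fold. Most ER chaperones lie to the left of 0 and the integrated stress response targets mostly to the right, and only Hspa1a in DMEM passes 2-fold.

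The AEPS response differed between the lines by 1 or more on the log2 scale for 1 member, Hspa1a (-1.08, knockdown minus scramble), where 0.526% of 20336 genes had such a value upward and 1.62% downward. This quantity has no residual degrees of freedom and no test. Ppp1r15a had -0.58, Dnajb9 0.60, Eif2ak3 0.52 and Edem1 0.51. For 10 of 11 ER chaperones the value was positive, with a median of 0.17 beside 0.04 for all genes. Over all genes, 11370 of 20336 had a positive value. On the authors' deposited value table, whose labels name the lines the other way round, 1 of the 11 was positive. The median there was -0.18, beside -0.04 for all genes. The ER chaperones were read on the same arrays, so they are not replicates of the difference in response, and its direction rests on the line labels.

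Other genes of the same pathways were counted in 6 further lists of 125 genes, of which 121 were fitted. AEPS raised 8 of them (6.61%) and lowered 1 (0.826%), beside 7.4% and 7.29% of all genes, so the share that rose was near the background. Among 25 other ATF4 targets 5 rose and 0 fell, with a list median of 0.25. Like the other lists, it was chosen with earlier results of these data known, so it is no independent check of the members. Slc7a11, the cystine importer, had the largest effect, with a relative signal of 3.10 and 4.10 under AEPS, against 0.248 and 0.179 in DMEM (4.08 ± 0.25; limma adjusted p = 0.00898). Its partner chain Slc3a2 rose by 0.93 ± 0.11 (SE; limma adjusted p = 0.0232). The transcription factor gene Atf3, which many stimuli induce, rose by 2.03 ± 0.14 (SE; limma adjusted p = 0.00979), and the stress regulator gene Nupr1 rose by 1.89 ± 0.20 (SE; limma adjusted p = 0.0188). Several of these genes also answer to factors other than ATF4.

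In the list of eIF2 kinases, eIF2 and eIF2B, 2 of 11 genes rose and 0 fell. Eif2ak2, which encodes the interferon-inducible kinase PKR, had 3.97 and 8.52 under AEPS, against 1.57 and 2.07 in DMEM (1.69 ± 0.21; limma adjusted p = 0.0242), and Eif2s2, the gene of the eIF2 beta subunit, rose by 0.64 ± 0.11 (SE; limma adjusted p = 0.0441). Of 28 further ER translocation and folding genes 1 rose and 0 fell. That gene was Ero1a, the oxidase that recharges protein disulphide isomerases, with an effect of 1.03 ± 0.13 (SE; limma adjusted p = 0.0259). Of 19 further ER-associated degradation genes 0 rose and 0 fell by limma, with 4 at an unadjusted p under 0.05. Such an unadjusted limma p was reached by 7581 of all 22339 genes. Of 30 other heat shock and cytosolic chaperone genes 0 rose and 1 fell, namely Hspa4l, an HSP110 family gene, at -1.09 ± 0.14 (SE; limma adjusted p = 0.0243). Of 8 mitochondrial chaperone genes 0 were called by limma, with 0 at an unadjusted p under 0.05. List medians ran from 0.06 to 0.25, beside 0.07 for all genes.

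**Figure D5:**
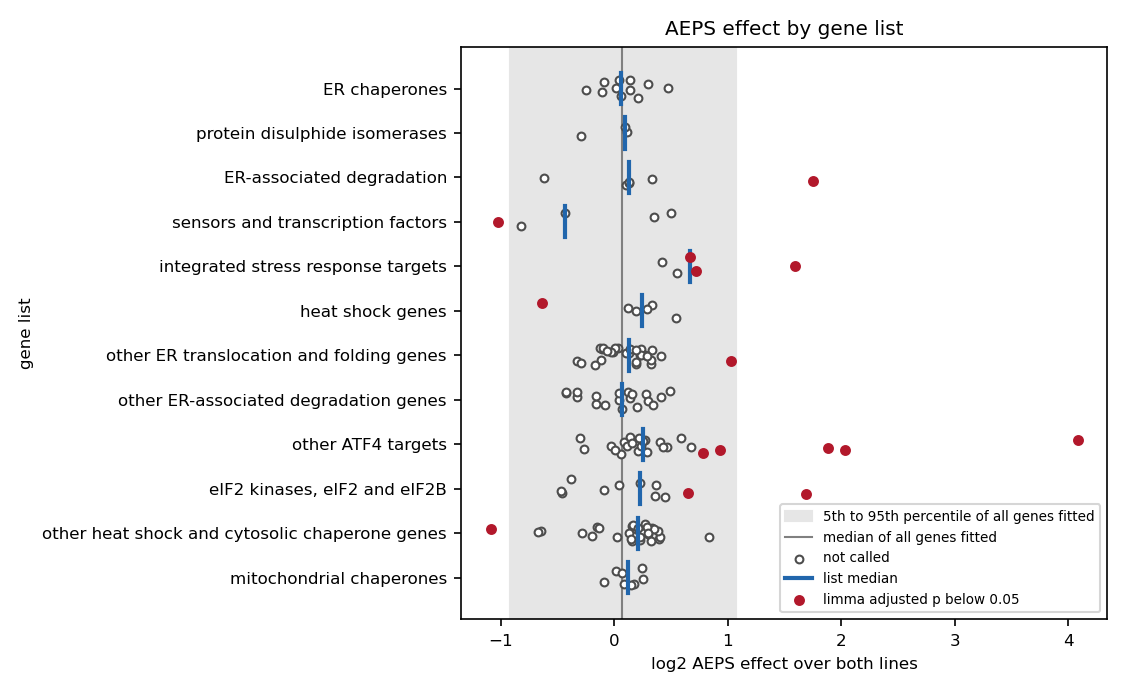
AEPS effect over both lines (horizontal axis, log2) for every fitted gene of each list, with called genes filled and list medians as vertical bars. The grey band spans the 5th to 95th percentile of all 22339 genes (-0.92 to 1.07), and most chaperone genes lie near the middle of it, while the integrated stress response targets have the highest median, 0.67.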

How the data were processed

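Each of the 4 groups held 1 array, all on 1 slide with 1 scan. Per the file headers, processed intensities were deposited as Agilent Feature Extraction 10.7.1.1 wrote them, background-corrected and not normalized between arrays. The authors' deposited value table holds log2 values whose columns share the same sorted values, as quantile normalization leaves them. Its tool and scaling steps are not given in the sources used here, and it served as an alternative only.

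The log2 processed intensity was scaled to the 75th percentile of each array. Control spots and outlier spots were left out, spots of a probe were averaged, and the brightest probe stood for a gene. Probes were named through RefSeq accessions, symbols or synonyms where these matched. Genes that at least 2 arrays read well above background entered an additive fit of line and treatment in limma 3.58.1 (R 4.3.3), with Benjamini-Hochberg adjustment over all genes at 0.05. That fit leaves 1 residual degree of freedom and takes the line and AEPS effects as additive. Single arrays were compared by size at 2-fold. The code was tested on simulated data. Alternatives were the normexp background (offset 50), quantile normalization, a filter on all 4 arrays, no filter, the mean over probes, the value table and an intensity trend. Values in every array are printed for called members and for a chosen set of sensors, factors and chaperones. In other lists up to 4 called genes are named. The members and lists were chosen with earlier results of these data known.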

Additional observations from a re-analysis of the deposited data

Results flagged for a closer look

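Some members had opposite signs in the 2 lines or in the 2 media. With 1 array per group none of these differences was tested. The AEPS difference on the arrays labelled knockdown and scramble was 0.12 and -0.05 for Canx (difference 0.17), 0.19 and -0.41 for Dnajb9 (0.60), and 0.09 and -0.27 for Dnajc3 (0.36). It was -0.10 and 0.13 for Hyou1 (-0.22), and 0.24 and -0.02 for Pdia3 (0.26). A second, dimmer Dnajb9 probe had 0.12 and 0.03, so the opposite signs of that gene were not seen on both of its probes. The flags went by the brightest probe of each gene. Dimmer probes of Hspa8 (-0.31 and 0.55), Derl1 (0.22 and -0.14), Derl2 (-0.0055 and 0.08) and Pdia6 (0.28 and -0.06) also had opposite signs.

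The line difference (knockdown minus scramble) under AEPS and in DMEM was 0.47 and -0.13 for Dnajb9 (0.60), and -0.11 and 0.12 for Hyou1 (-0.22). The second Dnajb9 probe had 0.52 and 0.42, the same sign in both media. The difference was 0.22 and -0.30 for Eif2ak3 (0.52), -0.26 and 0.32 for Ppp1r15a (-0.58), and 0.02 and -0.20 for Hsf1 (0.22).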

How the results depend on the processing

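No paired analysis was possible because each group holds 1 array with replicate number 1, other than by line, which is already a term of the fit. Leaving out an array leaves 0 residual degrees of freedom and no test. For AEPS over both lines, the 4 higher and 2 lower members became 7 and 5 with normexp, 7 higher with the filter on all 4 arrays, 0 and 0 with no filter, and 11 and 5 with the intensity trend. Between the lines, 0 members became 1 higher with normexp, and 1 higher and 1 lower with the trend. By size, normexp gave 0 lower for AEPS on the knockdown arrays, 1 lower on the scramble arrays, 0 higher between lines in DMEM and 0 lower in response. Under its own labels, the value table gave 2 lower on the knockdown arrays and 1 lower on the scramble arrays. It also gave 0 higher and 1 lower between lines in DMEM, and 1 higher and 0 lower in response. Those labels name the lines the other way round. Small AEPS effects turned negative under quantile normalization: Hsp90b1 -0.16, Calr -0.23, Canx -0.18, Dnajb11 -0.0302, Creld2 -0.0113, Pdia3 -0.065, Pdia6 -0.22, Derl1 -0.0243, Derl2 -0.061 and Hspa8 -0.0638. On the value table Hsp90b1 had -0.10, Calr -0.16, Canx -0.14, Dnajb11 -0.0169, Pdia3 -0.0466, Pdia6 -0.15, Derl2 -0.0397 and Hspa8 -0.0463. Canx had -0.004 with normexp and Dnajb11 -0.0119 as a mean over probes. The value table's line labels turned the line differences of Trib3 (-0.71), Chac1 (-0.46) and Hspa1a in DMEM (-1.30), and gave Hspa1a -0.0538 for AEPS on the scramble arrays and 1.01 in response. Causes were not tested, other than that table's labels. Quantile normalization moved the median AEPS effect to -0.02 for the members and -0.03 for all genes.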
